A study of Sus scrofa with 2 samples.

Results

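The erythroid and haemoglobin genes are the genes by which red cells and their precursors make, fold and house haemoglobin. They were taken from the deposited table as the rows named HBB, HBM, ALAS2, GYPC, SLC4A1, AHSP, EPB42, KLF1 or GATA1, together with every row whose description names a haemoglobin subunit. This gave 12 genes of 27622 features, of which 5 encode haemoglobin chains and 7 do not. RNA was measured by RNA-seq in the stria vascularis (SV), the vascularised epithelium of the lateral wall of the cochlea. By the study's methods the whole lateral wall with the SV in it was dissected, so that the RNA is not of the SV alone. The pigs were heterozygous (MITF R/r) and homozygous (MITF r/r) for the r allele of MITF, the gene of a transcription factor of melanocytes. The r allele arose in Rongchang pigs and carries short insertions in the melanocyte-specific promoter, upstream of its transcription start site. The control also carries the r allele on 1 chromosome, so that neither library is free of it. Both samples are labelled P1, whereas the study's text places the RNA-seq samples in embryonic life, and the number of animals behind each library is not given in the sources used here.

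Each genotype had 1 library, so that every difference below has no replicate check, carries no p-value, and compares these libraries rather than the genotypes. Values are RPKM, a read density that allows for how long a gene's exons are and how deeply its library was sequenced. Whole reads were worked out from them, and gave library totals of 15829244 reads for R/r and 14258672 reads for r/r, with 89.3% of them on genes in both. The reads of a gene are the smallest that fit and may be a fraction of the true ones, which the 89.3% does not allow for. All intervals are 95% intervals that cover counting error only, and reads copied by PCR are not independent molecules. The intervals are exact, except those for a ratio of genes within a library, which are normal on the log scale. MITF was listed as 3 features, with log2 ratios of r/r over R/r of -0.51, -0.45 and -0.48. The SV was recognisable in both libraries by the marginal cell genes ATP1B2 (915 RPKM in R/r and 522 RPKM in r/r) and SLC12A2 (312 and 334 RPKM). Of 10 genes of intermediate cells, the melanocytes of the SV, past 1 RPKM, 7 were at least 2-fold lower in r/r, namely DCT, TYR, PMEL, KCNJ10, KCNJ13, SLC45A2 and EDNRB, led by DCT with 171 and 1.19 RPKM.

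As background, haemoglobin is assembled from alpha-like and beta-like chains, each of which holds a haem group. Different chains are used in the embryo and later in life. Red cell precursors import iron, build haem in a pathway that ALAS2 opens, and protect free alpha chains with the chaperone AHSP. Mature mammalian red cells have no nucleus, but young ones still hold globin mRNA, and the SV is threaded by a dense bed of capillaries. Band 3 (SLC4A1), protein 4.2 (EPB42) and glycophorin C (GYPC) join the red cell membrane to its skeleton, and GATA1 and KLF1 are the transcription factors that drive the erythroid programme in the precursors. In bulk tissue, fewer cells of a type and less RNA per cell cannot be told apart.

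The adult haemoglobin chains were among the most abundant transcripts of both libraries, and all other members were far below them. HBB (ENSSSCG00000014725), the beta chain, had 1655 RPKM in R/r (1622 to 1688) and 1393 RPKM in r/r (1361 to 1426), ranks 27 and 41 among all features. HBA (ENSSSCG00000007978), the alpha chain, had 1344 RPKM in R/r (1320 to 1369) and 1026 RPKM in r/r (1003 to 1049), ranks 40 and 59. For both chains the r/r library was the lower one, and the counting intervals of the libraries did not overlap. The log2 ratio was -0.25 for HBB (-0.29 to -0.20) and -0.39 for HBA (-0.43 to -0.35), which is 1.31-fold lower for HBA. Among features with at least as many reads, 11.1% of 144 had a lower ratio than HBB and 5.83% of 120 had a lower ratio than HBA. The alpha chain is encoded by near-identical copies in mammals and only 1 row carried it here, so that reads could be split between copies or lost.

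**Figure D1:**
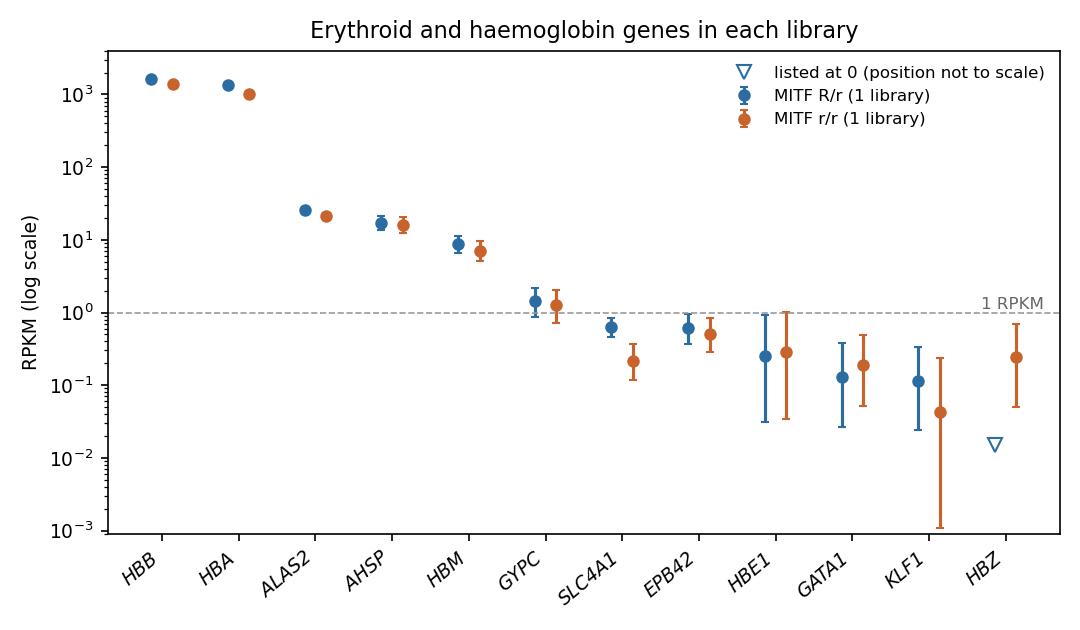
RPKM of the 12 genes (log axis) in the MITF R/r library (blue) and the MITF r/r library (orange), with exact 95% counting intervals as bars; the open triangle marks HBZ, listed at 0 in R/r, and is not to scale. HBB and HBA lie at 1026 to 1655 RPKM, ALAS2, AHSP and HBM follow at 7.13 to 26.0 RPKM, GYPC is just above 1 RPKM, and the other 6 genes are below it.

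The remaining chains were rare. HBM (ENSSSCG00000007977), the mu chain, an alpha-like globin, had 8.66 RPKM from 58 reads in R/r and 7.13 RPKM from 43 reads in r/r, and its log2 ratio of -0.28 had an interval on both sides of 0 (-0.89 to 0.31). HBE1 (ENSSSCG00000014726), the embryonic beta-like chain epsilon, had 2 reads in each library, at 0.254 and 0.282 RPKM. HBZ (ENSSSCG00000007975), the embryonic alpha-like chain zeta, was listed at 0 in R/r and had 0.241 RPKM from 3 reads in r/r. If that 0 is a count of no reads, it allows HBZ up to 0.217 RPKM in R/r by a floor of 3 reads, and no fold is given. Genes used by nearly every cell, such as the ferritin chain FTL and the haem synthesis gene PPOX, were also listed at 0 in both libraries, so that a 0 in this table can be a failed estimate, to which no such limit applies. HBA and HBB together made up 99.7% of the haemoglobin reads in each library.

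Summed over the 5 chains, 21078 reads were found in R/r and 15180 in r/r, a log2 ratio of -0.32 (-0.35 to -0.29). Haemoglobin took 0.149% of the reads on genes in R/r (0.147 to 0.151) and 0.119% in r/r (0.117 to 0.121). The sum and the shares rest on the smallest reads that fit each gene, which may be a fraction of the true ones that differs by gene. Their intervals do not cover this. Haemoglobin thus took a small share of either library, and a smaller one in r/r. The chains did not differ to the same extent. The RPKM of the alpha-like chains was 0.817 times that of the beta-like chains in R/r and 0.742 times in r/r, a log2 difference of -0.14 (-0.20 to -0.08) in which HBA was further below its R/r value than HBB.

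Beside the alpha-like cluster, in the gene order of RefSeq on a later assembly, 7 other genes at 1 RPKM or more had log2 ratios of -0.17 to 0.15. NPRL3, whose introns hold the distal enhancer of the alpha-like globin genes in mammals, had 11.5 RPKM in both libraries (log2 ratio -0.01, -0.23 to 0.22). LUC7L had 29.7 and 28.6 RPKM (-0.06, -0.16 to 0.04), and MPG, on the other side, 20.7 and 21.6 RPKM (0.07, -0.11 to 0.24). RHBDF1 alone among the neighbours compared had an interval below 0 (34.4 and 30.6 RPKM, -0.17, -0.28 to -0.05).

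ALAS2 (ENSSSCG00000012347), the erythroid enzyme of the first step of haem synthesis, had 26.0 RPKM from 404 reads in R/r and 21.1 RPKM from 295 reads in r/r. Its log2 ratio of -0.30 (-0.52 to -0.08) lay below 0, close to those of HBB and HBM. Relative to HBB of the same library, a comparison chosen after seeing the data, ALAS2 stood at 1.57% in R/r and 1.51% in r/r, and the log2 difference of -0.06 (-0.28 to 0.17) was within counting error. AHSP (ENSSSCG00000022403), the chaperone of free alpha chains, had 17.1 RPKM from 74 reads and 16.2 RPKM from 63 reads. With a log2 ratio of -0.08 (-0.59 to 0.42), a difference was not detectable at this depth. AHSP was 1.27% of HBA in R/r and 1.58% in r/r, again within counting error (log2 difference 0.31, -0.18 to 0.80).

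The membrane genes were near or below 1 RPKM. SLC4A1 (ENSSSCG00000017358), band 3, the anion exchanger of the red cell, had 0.632 RPKM from 45 reads in R/r and 0.218 RPKM from 14 reads in r/r. Its log2 ratio of -1.53 (-2.51 to -0.64) was the lowest of the members, with an interval wholly below 0, but it was under the minimum of 1 RPKM in both libraries. With a pseudocount of 1 RPKM its log2 ratio was -0.42. Without a pseudocount, SLC4A1 was also lower relative to HBB (log2 difference -1.29, -2.15 to -0.42) and relative to ALAS2 (-1.23, -2.12 to -0.34), both also chosen after seeing the data. EPB42 (ENSSSCG00000004714), protein 4.2, which binds band 3, had 0.611 RPKM from 20 reads and 0.509 RPKM from 15 reads (-0.26, -1.33 to 0.78). Relative to HBB, EPB42 differed by -0.02 on the log2 scale (-0.98 to 0.95), an interval too wide to set it apart from SLC4A1. GYPC (ENSSSCG00000030984), glycophorin C, had 1.43 RPKM from 20 reads and 1.27 RPKM from 16 reads (-0.17, -1.22 to 0.85).

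Near SLC4A1 in the same gene order, 8 genes other than ITGA2B reached 1 RPKM and had log2 ratios of -0.30 to 0.15. GRN, the most abundant of them, stood at 131.2 and 122.7 RPKM (-0.10, -0.16 to -0.04), and FAM171A2 had the lowest ratio (-0.30, -0.71 to 0.11). UBTF stood at 33.0 and 35.9 RPKM (log2 ratio 0.12, 0.02 to 0.22) and SLC25A39 stood at 51.1 and 53.5 RPKM (0.07, -0.05 to 0.19). ITGA2B, the platelet integrin gene 5 places away, had 3.76 RPKM from 114 reads in R/r and 1.90 RPKM from 52 reads in r/r (-0.98, -1.48 to -0.50). SLC4A1 is a red cell gene and ITGA2B a platelet gene, and a link between their ratios was not tested.

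The erythroid transcription factors were barely detected. GATA1 (ENSSSCG00000027237) had 3 reads in R/r (0.130 RPKM) and 4 in r/r (0.192 RPKM), a log2 ratio of 0.57 (-2.00 to 3.34). KLF1 (ENSSSCG00000013730) had 3 reads in R/r (0.116 RPKM) and 1 in r/r (0.0428 RPKM), a log2 ratio of -1.43 (-7.15 to 2.20). A difference in either direction was not detectable at these counts.

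**Figure D2:**
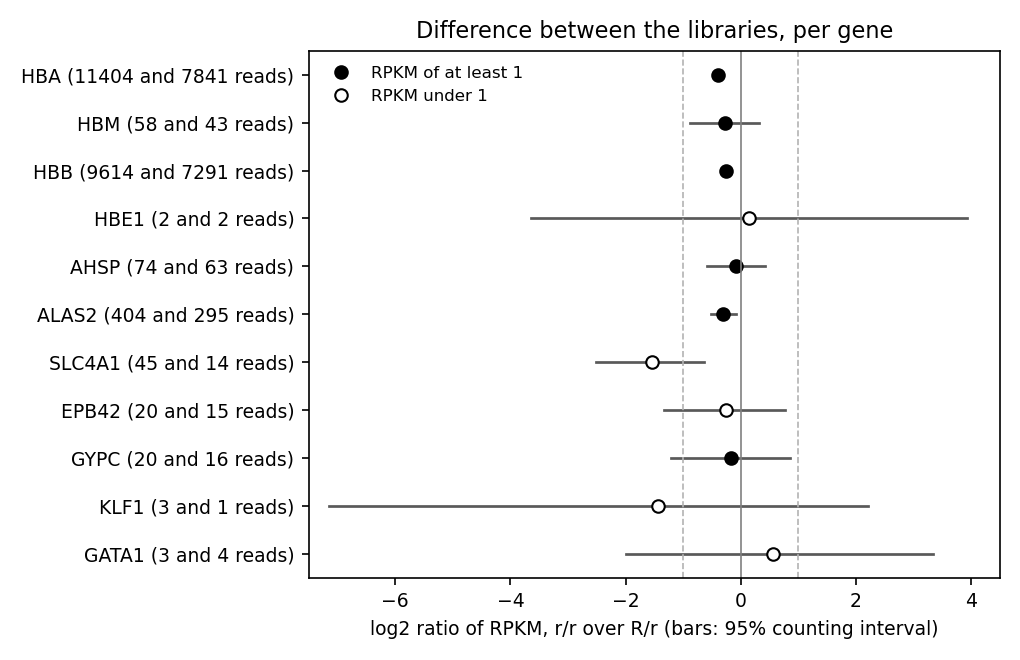
Log2 ratio of RPKM, r/r over R/r, for the 11 genes above 0 in both libraries, with exact 95% counting intervals as bars; filled points have at least 1 RPKM in a library, open points do not, and dashed lines mark 2-fold. The intervals of HBA, HBB, ALAS2 and SLC4A1 lie wholly below 0, and those of the genes with the fewest reads span both 2-fold lines.

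For the group, ratios were read against all genes that had reads in both libraries and reached 1 RPKM in either. There were 16331 such genes and 6 of the members, namely HBB, HBA, ALAS2, AHSP, HBM and GYPC. None of these 6 was 2-fold apart, where 2.2% of all genes were at least 2-fold lower in r/r and 1.78% at least 2-fold higher. All 6 had a ratio below 0, as did 53.3% of all genes. The interval was wholly below 0 for 3 of the 6 (HBA, HBB and ALAS2), as for 14.5% of all genes, and above 0 for none, as against 11.2% of all genes. The ratios come from the same pair of libraries, and their common direction is not 6 separate observations. Their median log2 ratio was -0.27 (range -0.39 to -0.08), and that of all genes was -0.02. Without a minimum, 11 members could be compared. SLC4A1 and KLF1 were then at least 2-fold lower, where 3.89% of 19347 genes were, and none was at least 2-fold higher, where 3.78% of genes were.

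**Figure D3:**
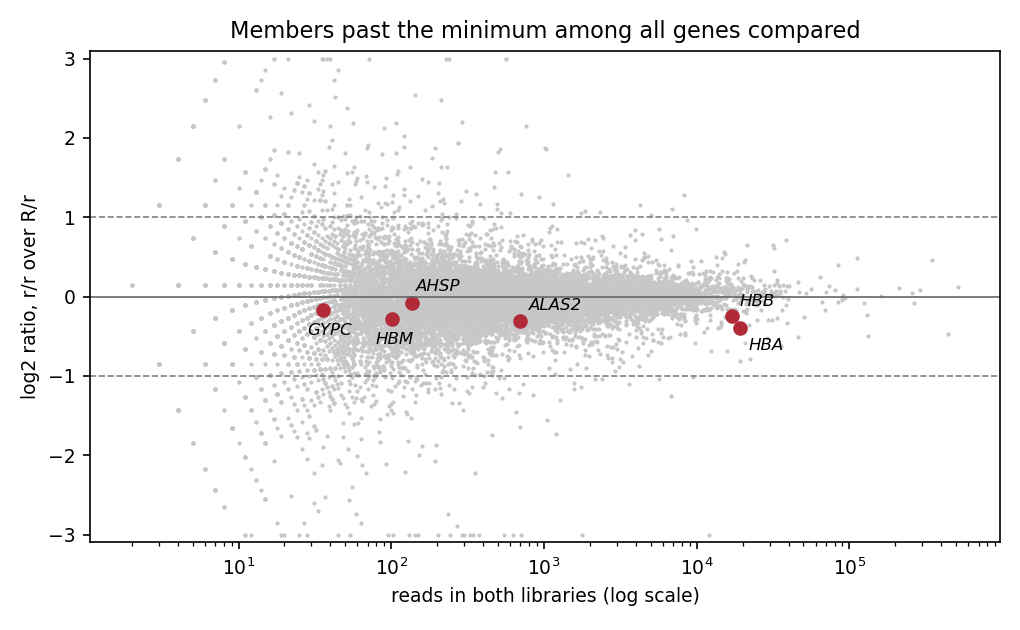
Log2 ratio of RPKM, r/r over R/r, against the reads found in both libraries (log axis) for the 16331 genes compared (grey; ratios beyond 3 on either side are drawn at the edge) and the 6 members past the minimum (red). All 6 red points lie below 0 and none reaches the dashed 2-fold lines.

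The medians of the other red cell pathways lay between -0.12 and 0.07. Of the haem synthesis list, 7 of 9 genes were past the minimum with a median log2 ratio of -0.01. Of these, 3 had an interval below 0, namely ALAS2, ALAS1, the form found in all tissues (-0.16, -0.30 to -0.01), and UROS (-0.25, -0.45 to -0.04). UROD (43.4 and 43.3 RPKM) and FECH, which inserts the iron (30.8 and 32.7 RPKM), were the most abundant and had intervals on both sides of 0. Among 9 genes of iron and haem transport past the minimum the median was -0.09. TFRC, the transferrin receptor by which cells take up iron, was higher in r/r with 79.5 and 95.4 RPKM (0.26, 0.19 to 0.34), opposite to the globin chains. ABCB10, a mitochondrial transporter of erythroid cells, was lower with 17.4 and 13.9 RPKM (-0.32, -0.46 to -0.19).

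Among 10 genes of the red cell membrane and skeleton past the minimum the median was -0.04, and none was 2-fold apart. ADD3 (113 and 110 RPKM) and ADD1 (99.0 and 105 RPKM), the adducins, were the most abundant. ANK1, the ankyrin that holds band 3 to the skeleton, was higher in r/r with 93 reads in R/r and 134 reads in r/r (0.68, 0.29 to 1.08), the opposite direction to SLC4A1. Of the 4 surface and transport genes past the minimum, CD59 (180 and 161 RPKM) and CD47 (82.3 and 84.3 RPKM), which are found on most cells, were the most abundant.

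ACKR1, the Duffy blood group protein and a chemokine receptor of venular endothelium as well as of red cells, was the single gene of the red cell pathway lists past the minimum that was at least 2-fold apart. It had 5.71 RPKM from 100 reads in R/r and 0.190 RPKM from 3 reads in r/r, a log2 ratio of -4.91 (-7.21 to -3.32). Its ratio was far below those of HBB, HBA and ALAS2. The genes beside ACKR1 were not compared, unlike those near HBM and SLC4A1. The red cell surface genes RHAG (14 and 11 reads), KEL (8 and 9 reads), XK (27 and 16 reads) and RHCE (11 and 6 reads) had intervals on both sides of 0. The 11 endothelial genes had a median log2 ratio of -0.07 and a range of -0.73 to 0.24. CLDN5 (71.3 and 76.3 RPKM) and PECAM1 (69.1 and 59.9 RPKM) were the most abundant of them. Their summed level was 345 RPKM in R/r and 338 RPKM in r/r.

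Regulators of the lineage that other cells also use were better measured than GATA1 and KLF1. Among 6 transcription genes past the minimum, GATA2 (47.5 and 51.7 RPKM) and LDB1 (41.1 and 37.6 RPKM) were the most abundant and had log2 ratios of 0.12 (0.04 to 0.21) and -0.13 (-0.22 to -0.04). TAL1 had 83 and 54 reads (-0.47, -0.99 to 0.04). For erythropoietin signalling, 6 genes were past the minimum with a median of -0.11. TFRC and STAT5A (20.5 and 18.4 RPKM) were the most abundant. EPOR, the receptor, had 11 reads in each library, and EPO was listed at 0 in both.

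Red cell enzymes and maturation genes had a median of 0.07 over 9 genes, none of them 2-fold apart and 3 with an interval above 0. CA2, a carbonic anhydrase of red cells and many epithelia, had 368 and 388 RPKM (0.07, 0.04 to 0.10), and PRDX2, an abundant antioxidant enzyme of red cells, had 249 and 269 RPKM (0.11, 0.04 to 0.17). HEMGN, a nuclear protein of erythroid precursors, had 59 and 49 reads (-0.12, -0.69 to 0.45). CA1 and PKLR, the carbonic anhydrase and the pyruvate kinase typical of red cells, were listed at 0 in both. Of the clearance genes, 5 were past the minimum with a median of 0.05, led by the haem oxygenases HMOX2 (47.5 and 48.9 RPKM) and HMOX1 (19.9 and 21.3 RPKM).

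Markers of other blood cells were mostly few in reads. Of 10 neutrophil genes, 3 were past the minimum, with a median log2 ratio of -0.85 and every interval on both sides of 0. ELANE had 15 and 10 reads, PRTN3 had 6 and 3 reads, and AZU1, with 11 and 3 reads, was at least 2-fold lower by its ratio (-1.72, -4.21 to 0.20). Below the minimum, LTF had 6 and 15 reads and was higher in r/r (1.47, 0.03 to 3.13). The list sum was 9.57 RPKM in R/r and 6.23 RPKM in r/r, with CAMP at 0 in both. The 5 platelet and megakaryocyte genes past the minimum had a median of -0.34, and PF4 and PPBP were listed at 0 in both. THBS1, which many cells make, was the most abundant and was higher in r/r (112 and 133 RPKM, 0.25, 0.20 to 0.30), followed by ITGB3 (9.15 and 8.94 RPKM, -0.03, -0.24 to 0.17). ITGA2B and VWF, which endothelium also makes (10.7 and 6.49 RPKM, -0.73, -1.08 to -0.38), had intervals below 0. The platelet list summed to 139 RPKM in R/r and 153 RPKM in r/r. The 9 macrophage genes had a median of -0.12 and summed levels of 96.6 and 90.0 RPKM, led by C1QC (491 and 411 reads) and AIF1 (199 and 192 reads). The 7 progenitor genes, led by GATA2 and KIT (43.6 and 44.2 RPKM), had a median of -0.04.

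All 12 bone genes were past the minimum, with a median of -0.65, and 11 had an interval below 0, as did 14.5% of all genes. The remaining gene, SPP1, was higher in r/r with 86.4 and 103.8 RPKM (0.266, 0.176 to 0.355). SPARC had 1759 and 1170 RPKM and IBSP 431 and 268 RPKM, and DMP1, MEPE and COL1A1 were at least 2-fold lower in r/r. The summed bone level, of which SPARC was the largest part in both libraries, was 2817 RPKM in R/r and 1863 RPKM in r/r. The pericyte genes, led by RGS5 (84.9 and 85.0 RPKM) and PDGFRB (71.3 and 65.9 RPKM), had a median of -0.07. The marginal cell genes had a median of -0.31, and COCH and CLDN11, of fibrocytes and basal cells, had log2 ratios of -0.47 and -0.25. The lower bone values, and those of ITGA2B, stood beside the lower values of HBA, HBB, ALAS2 and SLC4A1, and their part in those values was not tested.

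**Figure D4:**
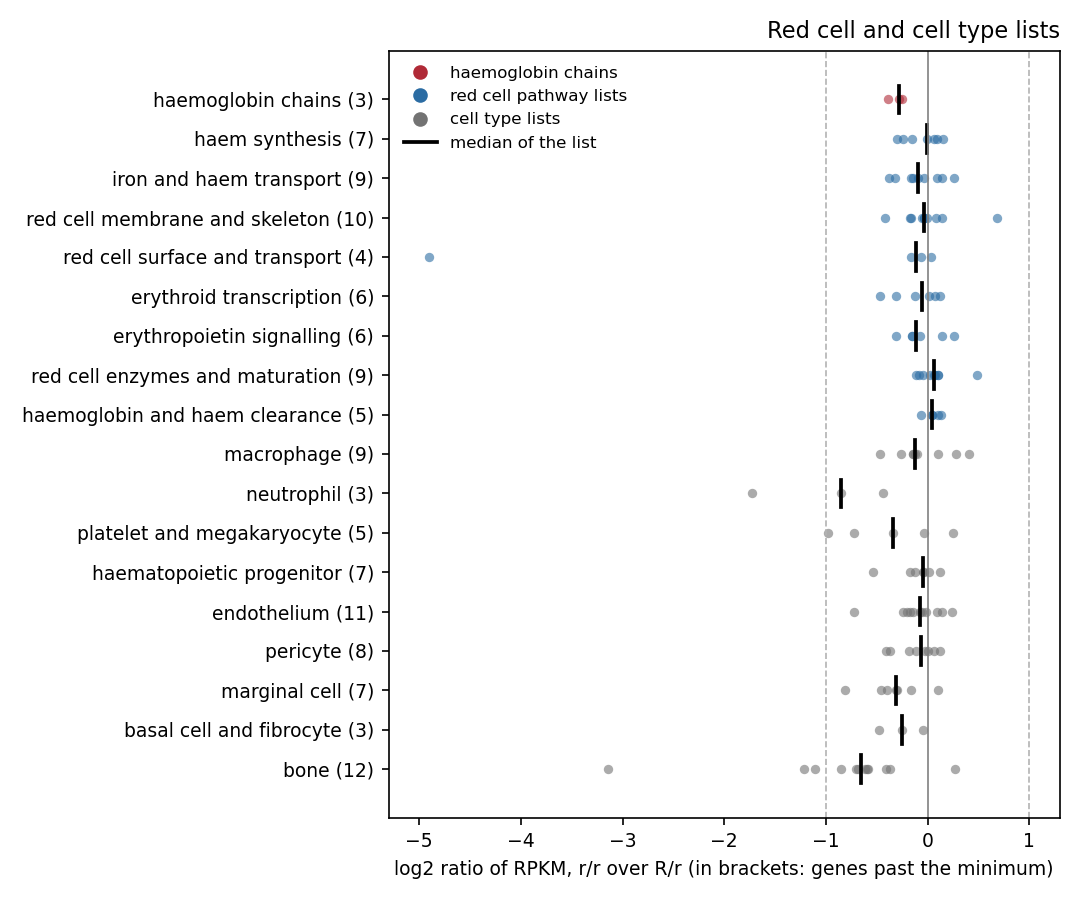
Log2 ratio of RPKM, r/r over R/r, of each gene past the minimum (points) in the haemoglobin chains (red), the red cell pathway lists (blue) and the cell type lists (grey), with the median of each list as a black bar and the number of genes in brackets; lists not drawn are left out for scale or are not reported. The medians of the haemoglobin chains (-0.28), bone (-0.65) and neutrophil (-0.85, 3 genes of few reads) lists lie to the left of 0. So do those of the platelet and megakaryocyte (-0.34), marginal cell (-0.31) and basal cell and fibrocyte (-0.25) lists. The medians of the other cell type lists drawn lie between -0.12 and -0.04. Those of the red cell pathway lists lie between -0.12 and 0.07, and the lone blue point at -4.91 is ACKR1.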

How the data were processed

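Clean paired reads were aligned by the authors to Sscrofa10.2 with TopHat2 2.0.7, and 1 RPKM value per gene was deposited for each library. The counting program, gene annotation and use of strand are not given in the sources used here. The deposited table has 2 further columns without headings, which hold the authors' comparisons and were not used.

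Whole reads were recovered as the smallest numbers that give both RPKM values (100% of 20862 features above 0). The true reads may be a common multiple. In simulated data of 20056 features, 100% were recovered up to a common factor and 96.7% of intervals held the true ratio. Log2 ratios had no pseudocount. Intervals were exact Clopper-Pearson for a gene, and normal on the log scale from the reads for a ratio of genes. A minimum of 1 RPKM and a threshold of 2-fold were used. A single read on 1 kb is worth 0.0632 RPKM in R/r and 0.0701 RPKM in r/r.

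The genes, lists and alternatives were chosen with earlier results of these data known. All members were named. From each list the 2 most abundant genes and any gene 2-fold apart at 1 RPKM were named, with MITF; others were chosen after their values were seen. Names in the deposited file covered 16376 features and Ensembl names 1794 more. RefSeq gave gene order only. The result of 1 marker list is not reported here. Computation was in Python 3.11.15 with scipy 1.17.1, pandas 2.3.3 and numpy 2.4.6, and plots were made with matplotlib 3.10.9.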

Additional observations from a re-analysis of the deposited data

How the results depend on the processing

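The number of members at least 2-fold apart was 0 at the main settings and 0 under both pseudocounts, a minimum of 5 RPKM, every scaling, a 1.5-fold threshold and intervals wholly beyond 2-fold, and it was 2 (SLC4A1 and KLF1) with no minimum. The median log2 ratio of -0.27 lay between -0.30 and -0.25 under the pseudocounts, minimums and scalings, and was -0.17 without the haemoglobin rows. The haemoglobin share depended on the denominator, with 0.501% of summed RPKM in R/r and 0.395% in r/r, and 0.157% and 0.126% of reads once mitochondrially encoded genes were left out of the total. The ratio of alpha-like to beta-like chains was 1.19 in R/r and 1.08 in r/r by reads, which are not scaled to length. These reads may be a fraction of the true ones that differs by gene. The ratio was lower in r/r on both scales, but both come from the same values, so that the second is not a separate check. Of 77 values of single members under these pseudocounts, minimums and scalings, 1 left its interval (SLC4A1, -0.42 with a pseudocount of 1 RPKM) and 0 changed direction among those with an interval on one side of 0. No paired analysis was possible because each genotype had a single library, and no library could be left out for the same reason. Depth limits the genes below 1 RPKM, where 20 reads or fewer stood behind most values.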
